A study of Mus musculus with 90 samples.

Results

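Whole lungs of unexposed Cyp2f2 knockout mice (CYP2F2(-/-), KO) were compared with those of unexposed wild-type mice (WT), across all genes. The comparison took the 20 arrays labelled 0 ppm out of 90 in the series, 10 KO and 10 WT, with 5 animals per strain after 1 week and 5 after 4 weeks. All were adult male C57BL/6 mice from 1 supplier that breathed air without styrene in the exposure cages. The rest of the series holds KO and WT mice that inhaled styrene at 40 or 120 ppm, and transgenic mice (TG), in which the labels give 2F1, SA13 and 2B6 genes on the same knockout. Exposures ran for part of the day on 5 days a week, and animals were killed the next morning. The sources used here do not state the deleted part of Cyp2f2, the promoters of the transgenes or whether KO and WT mice came from 1 breeding colony.

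Cyp2f2 is a cytochrome P450 of the airway club cell, a secretory cell that carries much of the xenobiotic metabolism of the mouse lung. P450s oxidise foreign compounds, and carboxylesterases, aldehyde oxidases, quinone reductases and glucuronosyltransferases hydrolyse, oxidise, reduce or conjugate compounds and their products. Many of these enzymes are induced by Nrf2, a transcription factor activated by electrophiles, and by the aryl hydrocarbon (Ah) receptor.

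Values are RMA levels on the log2 scale, 1 array per animal, and levels of different genes are not set against each other. A difference is the mean of KO minus the mean of WT with week as covariate in limma, and a gene passed at an adjusted p under 0.05 over 17097 genes. The medians of the 20 arrays lay between 4.66 and 4.84, and genes with a strain mean under 4.66 are described as dim. Pairs of these arrays correlated at 0.967 to 0.996 and 0 pairs of arrays were identical. Lung markers were bright in both strains, and those tested did not pass. Sftpc of alveolar type 2 cells averaged 13.80 ± 0.06 in KO and 13.82 ± 0.04 in WT lungs, and Ager of type 1 cells 13.54 ± 0.07 in KO and 13.53 ± 0.04 in WT lungs (SD, n = 10 each). Markers of heart muscle varied widely between animals, with an array mean over 11 measured genes of 5.39 to 8.98 in KO and 5.00 to 8.18 in WT lungs. KO animal 3 at 1 week had the lowest array weight (0.187). The log2 ratio of 3' to 5' control probe sets for Gapdh and Actb, a sign of RNA quality, averaged 0.202 ± 0.04 in KO and 0.238 ± 0.04 in WT lungs (SD, n = 10 each, permutation p = 0.064). It was lower by 0.04 in KO lungs at 1 week (n = 5 each, exact permutation p = 0.056) and by 0.03 at 4 weeks (exact permutation p = 0.28).

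In all, 45 of 17097 genes (0.263%) passed, 15 higher (0.0877%) and 30 lower (0.175%) in KO lungs, and 24 of the 45 differed by over 1.5-fold. For 16 genes the KO and WT animals did not overlap (0.0936% of all genes tested), and all 16 were among the 45. The 45 had the same sign at 1 week and at 4 weeks. They were called on the arrays of both weeks together, which favours equal signs, so this is a description. Of the 45, 11 had a dim mean in at least 1 strain. Several probe sets measured 13 of the 45, and in each of these genes all probe sets had the same sign. The sign does not show that they differed by as much. A second, dim probe set of Bdkrb2 was at 0.08 and a dim one of Atox1 at -0.05, and further cases are given with their genes. Over all genes the median difference was 0.02, and 59.0% of genes were positive. With the 3' to 5' ratio as a covariate, 30 genes passed, 5 higher and 25 lower. It kept 5 of the 15 higher and 24 of the 30 lower genes.

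**Figure D1:**
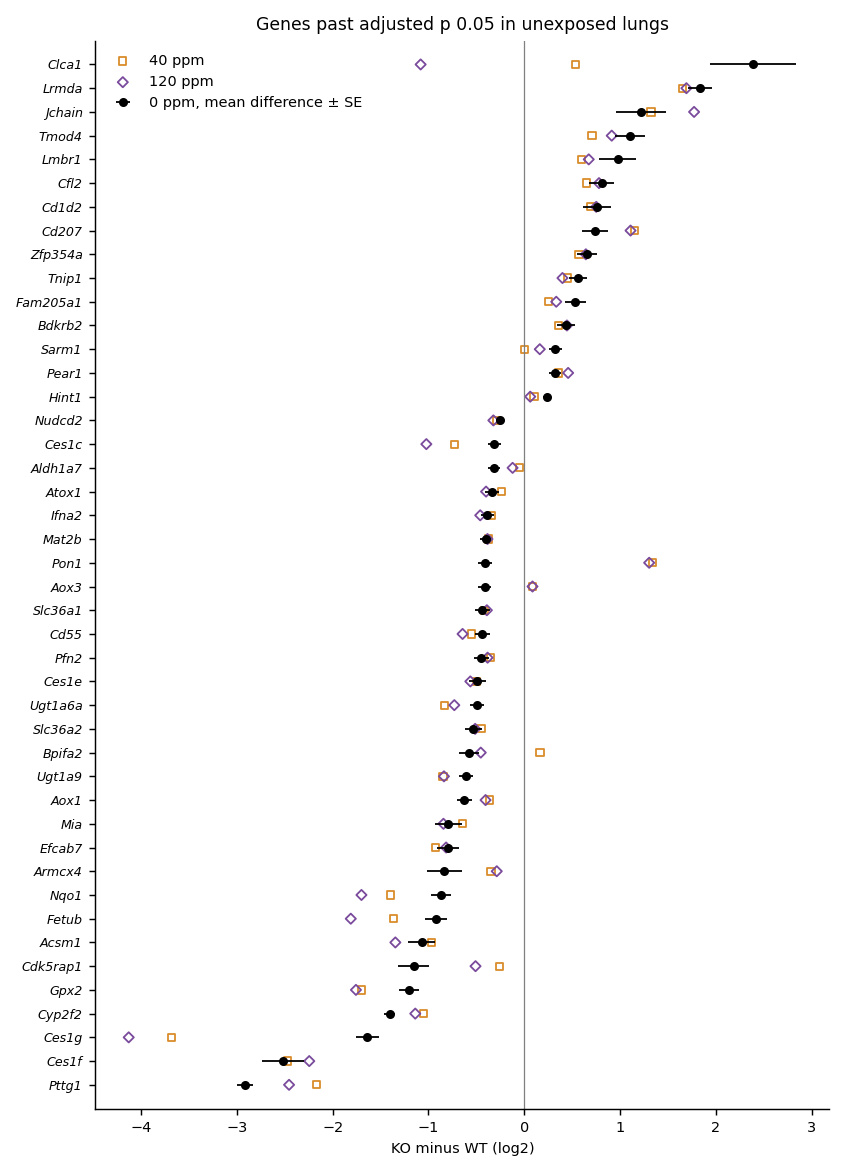
Difference between KO and WT lungs (log2, x axis) for 44 named genes that passed in unexposed animals. Black points are unexposed lungs with the SE of the fit, orange squares 40 ppm and purple diamonds 120 ppm, n = 10 per strain. Pttg1 at -2.92 and Ces1f at -2.52 lie at the lower end and Clca1 at 2.39 at the upper end, and Pon1 changes side under styrene (1.34 at 40 ppm).

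The regulatory sequences of 5 enzymes that fell together are shown because they belong to the Nrf2 list (Gpx2, Nqo1 and Ces1g) and to a pair of neighbouring aldehyde oxidase genes (Aox1 and Aox3). Each is the 250 bases before the gene's start, 5′ to 3′ on the gene's strand, from RefSeq on GRCm38.p6. Capitals mark the Ah receptor core motif GCGTG on either strand.
Gpx2, chr12:76795555-76795804, minus strand: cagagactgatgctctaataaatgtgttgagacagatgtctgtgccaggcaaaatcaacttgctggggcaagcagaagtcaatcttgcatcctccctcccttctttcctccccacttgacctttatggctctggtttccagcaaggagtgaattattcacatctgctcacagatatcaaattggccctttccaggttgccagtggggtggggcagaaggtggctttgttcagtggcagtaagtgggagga
Nqo1, chr8:107403206-107403455, minus strand: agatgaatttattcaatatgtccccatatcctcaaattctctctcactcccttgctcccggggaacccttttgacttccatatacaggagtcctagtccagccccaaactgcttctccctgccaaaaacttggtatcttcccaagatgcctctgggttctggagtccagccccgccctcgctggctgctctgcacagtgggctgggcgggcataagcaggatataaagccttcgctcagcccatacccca
Ces1g, chr8:93337210-93337459, minus strand: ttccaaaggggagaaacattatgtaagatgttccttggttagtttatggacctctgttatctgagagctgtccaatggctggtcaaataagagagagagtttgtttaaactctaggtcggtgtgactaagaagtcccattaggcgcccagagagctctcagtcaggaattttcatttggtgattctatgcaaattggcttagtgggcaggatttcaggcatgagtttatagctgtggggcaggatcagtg
Aox1, chr1:58029719-58029968, plus strand: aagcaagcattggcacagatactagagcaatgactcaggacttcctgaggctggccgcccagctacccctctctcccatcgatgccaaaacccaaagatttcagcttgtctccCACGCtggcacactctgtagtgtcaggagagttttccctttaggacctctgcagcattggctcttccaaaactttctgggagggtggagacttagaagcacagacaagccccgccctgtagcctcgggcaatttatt
Aox3, chr1:58112886-58113135, plus strand: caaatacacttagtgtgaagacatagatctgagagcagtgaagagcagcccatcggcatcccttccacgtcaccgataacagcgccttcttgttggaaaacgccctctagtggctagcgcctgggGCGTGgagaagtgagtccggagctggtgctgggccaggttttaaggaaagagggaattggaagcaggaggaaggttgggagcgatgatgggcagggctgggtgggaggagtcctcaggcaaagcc
The Ah receptor core occurred once in the Aox1 window, first base at 114 and on the opposite strand, and once in the Aox3 window, first base at 126. It occurred in 28.2% of 32851 promoter windows of this length and in 32.1% of the 28 windows of genes lower and 54.5% of the 11 windows of genes higher in KO lungs. The Nrf2 core TGACNNNGC, searched on both strands, was in none of the 5 windows, in 10.7% of the 28 windows, in 27.3% of the 11 windows and in 10.2% of all windows. The bases further upstream were not searched.

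The targeted gene, Cyp2f2 (chromosome 7), measured 11.53 to 12.07 in KO lungs with a median of 11.91, against 13.21 to 13.39 in WT lungs with a median of 13.25. The highest KO animal lay below the lowest WT animal. The difference was -1.41 (SE 0.06, adjusted p = 6.27e-13, limma). It was -1.43 at 1 week and -1.38 at 4 weeks. A single probe set measured Cyp2f2 and may lie outside the deleted part, so the residual KO level does not give the amount of intact mRNA, and the WT level lay near the highest value of the table, 14.01. Of 9 measured genes among the 20 nearest in the RefSeq table, 1 passed, Mia, which is named for melanoma inhibitory activity and encodes a secreted protein. Mia fell, with a KO median of 5.52 (5.12 to 6.65) against a WT median of 6.42 (5.82 to 6.76), a difference of -0.79 (SE 0.14, adjusted p = 0.00894). Its groups overlapped, with 9 of 10 KO animals below every WT animal. Of the 8 measured genes on the list of the Cyp2 cluster, none but Cyp2f2 passed, and Cyp2a5 was at -0.59 (SE 0.39, adjusted p = 0.78).

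Carboxylesterases hydrolyse esters, and 4 of the 13 measured members fell, all from the Ces1 cluster on chromosome 8. Over all genes tested, 0.175% fell. Ces1f measured 3.50 to 5.81 in KO lungs (median 4.36), against 6.32 to 7.25 in WT lungs (median 6.94). Ces1g measured 3.18 to 4.06 (median 3.56) in KO lungs, against 4.50 to 5.60 (median 5.24) in WT lungs. For both genes all KO animals lay below all WT animals, and the KO mean was dim. The difference was -2.52 for Ces1f (SE 0.22, adjusted p = 4.79e-07) and -1.64 for Ces1g (SE 0.12, adjusted p = 4.58e-08). Ces1e fell by 0.49 on the log2 scale (SE 0.09, adjusted p = 0.00748), with 9 of 10 KO animals below every WT animal. Ces1c, dim in both strains, fell by 0.31 (adjusted p = 0.0428), a call lost in 15 of the 20 fits without 1 animal (adjusted p 0.0145 to 0.0911). The 4 genes stand within a run of 5 tested genes, and the fifth, Ces1d, was at -0.24. The list's median was 0.00, against 0.02 over all genes, and the Ces2 members lay between -0.04 and 0.25. Probe sets of such similar genes may share signal between members.

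Of 30 measured Nrf2 targets 3 fell and none rose, 25 were negative, and the median was -0.12, against 0.175% lower, 7012 of 17097 negative and a median of 0.02 over all genes. Gpx2, a glutathione peroxidase that reduces hydroperoxides, measured 7.24 to 8.15 in KO lungs (median 7.61), against 8.32 to 9.10 in WT lungs (median 8.85). Nqo1, a quinone reductase, measured 4.62 to 5.46 in KO lungs (median 4.85), against 5.58 to 6.09 in WT lungs (median 5.81). Neither gene's groups overlapped. The difference was -1.20 for Gpx2 (SE 0.10, adjusted p = 3.36e-07) and -0.87 for Nqo1 (SE 0.10, adjusted p = 8.42e-05), and the third gene was Ces1g. Gsta2, a glutathione transferase, was at -0.63 (SE 0.15, adjusted p = 0.077), and the carbonyl reductase Cbr3 at -0.40 (SE 0.10, adjusted p = 0.14). Gclc, which makes the glutathione precursor, was at -0.13 and the heme oxygenase Hmox1 at -0.27. Of 18 measured glutathione transferases none passed (median -0.12).

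Among 11 Ah receptor targets 2 fell, Nqo1 and Ugt1a6a, and the median was -0.11, against 0.175% lower and a median of 0.02 over all genes. The P450s Cyp1b1 (-0.73, SE 0.16, adjusted p = 0.056) and Cyp1a1 (-0.64, SE 0.16, adjusted p = 0.15) did not pass. Cyp1b1 measured 5.14 to 6.49 in KO lungs (median 5.84), against 5.99 to 7.56 in WT lungs (median 6.36), with overlap. Its other probe sets, dim in both strains, were at -0.32 and 0.13. Of the 20 measured members on the list of other P450s and reductases, none passed.

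Of 20 measured aldehyde-oxidising, glucuronidating and sulfonating enzymes, 5 fell and none rose (median -0.02), against 0.175% lower and a median of 0.02 over all genes. The aldehyde oxidase Aox1 measured 8.39 to 8.90 in KO lungs (median 8.61), against 8.89 to 9.65 in WT lungs (median 9.30), and 9 of 10 KO animals lay below every WT animal. Its neighbour Aox3 measured down to 9.46 in KO lungs (median 9.90), against 10.10 to 10.46 in WT lungs (median 10.24), without overlap. Aox1 differed by -0.63 (SE 0.07, adjusted p = 8.42e-05) and Aox3 by -0.41 (SE 0.07, adjusted p = 0.00337). Aox4 of the same family, dim in both strains, was at 0.16. The glucuronosyltransferases Ugt1a6a (-0.49, SE 0.07, adjusted p = 9.56e-04) and Ugt1a9 (-0.61, SE 0.08, adjusted p = 1.71e-04) fell, and for Ugt1a6a the groups did not overlap. The 2 transcripts share their last exons, so the arrays cannot settle which of them changed. Aldh1a7, an aldehyde dehydrogenase, fell by 0.32 (SE 0.06, adjusted p = 0.0139) without overlap, and with the 3' to 5' covariate it was at -0.32 (SE 0.07, adjusted p = 0.090).

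The secretoglobins that define club cells did not pass, and their levels lay near the top of the scale. Scgb1a1, the main club cell secretoglobin, averaged 13.77 ± 0.07 in KO and 13.80 ± 0.05 in WT lungs (difference -0.03, 95% interval -0.12 to 0.05). Scgb3a2 averaged 13.35 ± 0.05 in KO and 13.32 ± 0.07 in WT lungs (difference 0.03, interval -0.05 to 0.12). Of 17 measured club cell genes 2 fell, Aox3 and Pon1, and the median was -0.08, against 0.175% lower and a median of 0.02 over all genes. Pon1, a lactone-hydrolysing paraoxonase, measured 10.58 to 11.07 in KO lungs (median 10.71), against 10.92 to 11.59 in WT lungs (median 11.17). The groups overlapped, with 8 of 10 KO animals below every WT animal (difference -0.41, SE 0.08, adjusted p = 0.0122). The secretory genes Scgb3a1 (0.84, SE 0.25, adjusted p = 0.32) and Bpifa1 (0.73, SE 0.47, adjusted p = 0.78) were positive and did not pass. In whole lung, fewer cells of a type and less RNA per cell cannot be told apart.

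**Figure D2:**
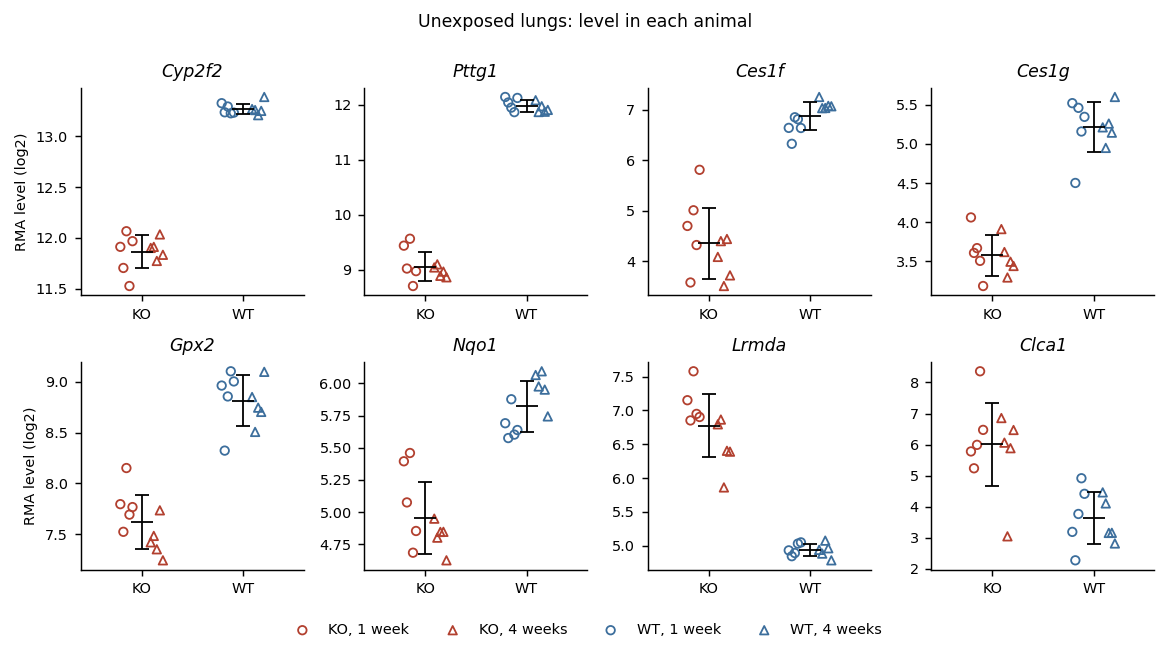
Level (RMA, log2, y axis) of 8 genes in each unexposed animal, KO left of WT. Circles are 1 week and triangles 4 weeks, and bars give mean and SD over 10 animals. KO animals lie below all WT animals for Cyp2f2, Pttg1, Ces1f, Ces1g, Gpx2 and Nqo1, above all of them for Lrmda, and overlap them for Clca1.

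Other enzymes and secreted proteins fell as well. Acsm1, a medium-chain acyl-CoA synthetase, measured 4.55 to 5.73 in KO lungs (median 5.25), against 5.99 to 6.86 in WT lungs (median 6.17), a difference of -1.07 (SE 0.14, adjusted p = 2.41e-04). Fetub, a plasma protease inhibitor made in liver, measured 3.71 to 4.82 in KO lungs (median 4.10), against 4.84 to 5.44 in WT lungs (median 5.02), a difference of -0.92 (SE 0.12, adjusted p = 1.59e-04). Neither gene's groups overlapped, and the KO mean of Fetub was dim. Fetub was the only 1 of 15 measured liver markers to pass, the list's array mean was 3.60 to 3.98 in KO and 3.66 to 3.98 in WT lungs, and Alb, the defining marker, was at -0.24. The mitochondrial tRNA-modifying protein Cdk5rap1 fell by 1.16 (SE 0.16, adjusted p = 5.53e-04) and the EF-hand protein Efcab7 by 0.80 (SE 0.11, adjusted p = 5.53e-04), both with overlap. Bpifa2, a secreted protein dim in both strains whose gene lies 5 genes from Cdk5rap1 in the RefSeq table, fell by 0.58 (SE 0.10, adjusted p = 0.00925). Cd55, which limits complement on cell surfaces, fell by 0.44 (SE 0.08, adjusted p = 0.007) without overlap, but its other probe sets were at -0.18 and -0.07. It was the only 1 of 15 measured complement genes to pass, and Cd59a was at -0.58 (SE 0.17, adjusted p = 0.25). Armcx4 fell by 0.83 (adjusted p = 0.049), a call lost in 15 of 20 fits without 1 animal. The actin-binding Pfn2 (-0.45) and the interferon gene Ifna2 (-0.38, dim in both strains) complete the fallen genes outside chromosome 11, and they fall outside the rule for named genes and were named after their values were seen.

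Pttg1 encodes securin, the protein that holds separase inactive until chromosomes part, and showed the largest difference of the 45 genes. It measured 8.71 to 9.57 in KO lungs (mean 9.06), against 11.86 to 12.14 in WT lungs (mean 11.98). No animals overlapped, and the difference was -2.92 (SE 0.08, adjusted p = 4.95e-16), with its other probe sets at -2.11 and -1.85. Of the 11 measured genes of sister chromatid separation only Pttg1 passed, and separase itself, Espl1, was dim in both strains and at 0.05. Of 40 cell cycle genes none passed (median -0.06).

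Pttg1 lies on chromosome 11, which held 11 of the 45 genes (24.4%) and 8.02% of the genes tested. Of these 11, 10 lie from Mat2b to Atox1, a stretch of 129 tested genes whose ends were set by the genes that passed, so that its share of 7.75% is a description. Mat2b, a subunit of S-adenosylmethionine synthase, fell by 0.40 (SE 0.06, adjusted p = 9.29e-04), the neighbouring Nudcd2 by 0.25 (SE 0.04, adjusted p = 0.00692), and Pttg1 as above. Slc36a2 (-0.53, SE 0.09, adjusted p = 0.00374) and Slc36a1 (-0.44, SE 0.08, adjusted p = 0.00649), 2 proton-coupled amino acid transporters, stand in 1 run with Atox1, a copper chaperone (-0.34, adjusted p = 0.049, lost in 17 of 20 fits without 1 animal). The zinc finger gene Zfp354a rose by 0.65 (SE 0.11, adjusted p = 0.00326), Tnip1, an inhibitor of NF-kappaB signalling, by 0.56 (SE 0.09, adjusted p = 0.00305), and Hint1, a nucleotide hydrolase, by 0.23 (SE 0.04, adjusted p = 0.0107). The remaining gene of the 10 is a predicted one. Sarm1, an NADase dim in both strains (0.33), stands apart from the stretch, and its call was lost in 5 of 20 fits without 1 animal, namely WT animal 3 at 1 week, WT animals 1 and 4 at 4 weeks and KO animals 4 and 5 at 4 weeks (adjusted p up to 0.057). The median difference of the 129 genes was -0.01, and 9 measured genes among the 20 nearest to Pttg1 held 0 that passed.

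In TG mice, on the same knockout, the 10 genes lay closer to WT. TG minus WT, which shares the 10 WT arrays, lay between -0.15 and 0.12 for the 10 genes (lowest adjusted p 0.58, limma), and Pttg1 measured 11.78 to 12.02 in TG lungs. KO minus TG, which shares the 10 KO arrays, was called for 7 of 17097 genes (0.0409%), 3 of them among the 10. Pttg1 was lower in KO than in TG lungs by 2.82 on the log2 scale (adjusted p = 2.12e-15) and Slc36a2 by 0.52 (adjusted p = 0.00306). For Nudcd2 and Hint1 of the 10, KO minus TG was only -0.11 and 0.16. Closeness of TG to WT was not particular to the stretch. Outside it, KO minus WT and TG minus WT were 0.81 and 0.06 for Cfl2 and 0.76 and 0.04 for Cd1d2. In other genes the 2 values were alike, at -1.41 and -1.39 for Cyp2f2 and -2.52 and -2.65 for Ces1f. They were -1.64 and -1.87 for Ces1g, and -1.20 and -1.22 for Gpx2. Lrmda was at 1.84 and 1.88. TG minus WT called 36 of all genes (0.211%), 6 higher (0.0351%) and 30 lower (0.175%). Of the 45 genes it called 18 lower and 2 higher, and since both comparisons use the same WT arrays this overlap is not read further.

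**Figure D3:**
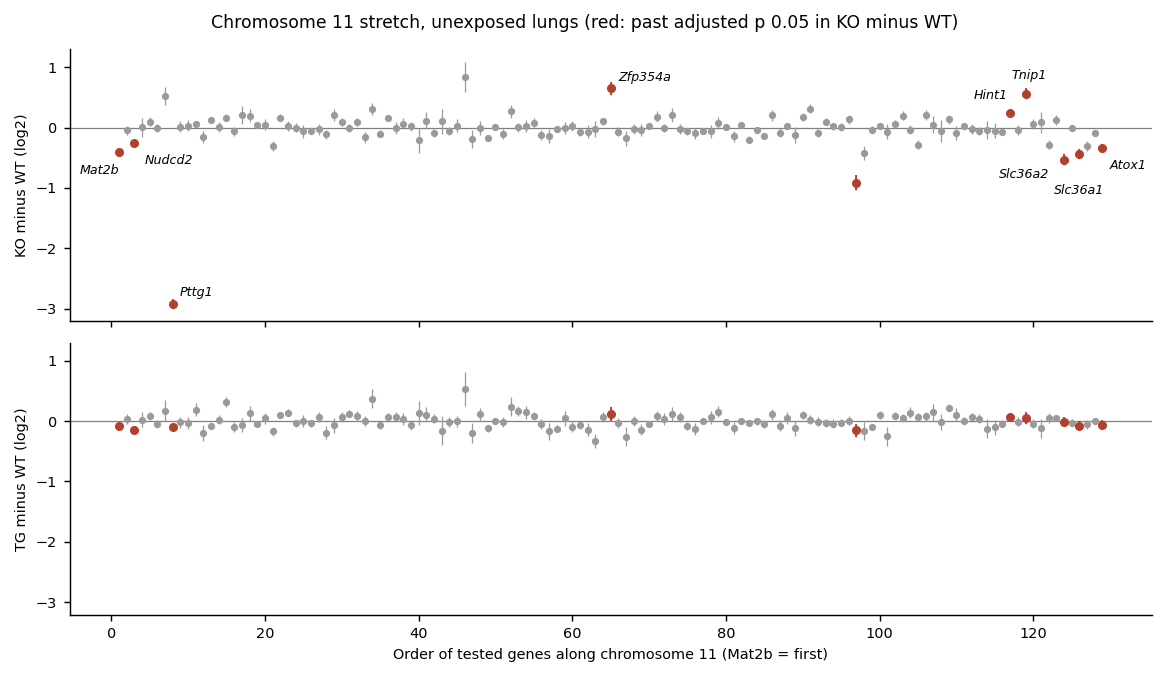
Difference from WT (log2, y axis) of the 129 tested genes from Mat2b to Atox1 in their order along chromosome 11, KO minus WT above and TG minus WT below, unexposed lungs with the SE of the fit. Red points are the 10 genes that passed in KO minus WT, with Pttg1 at -2.92 in KO and -0.10 in TG lungs.

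Among the genes that rose, Lrmda, a gene of melanocyte differentiation, measured 5.86 to 7.58 in KO lungs (median 6.86), against 4.78 to 5.08 in WT lungs (median 4.93). Lmbr1, a membrane protein gene whose introns hold a limb enhancer of Shh, measured 6.99 to 7.42 (median 7.31) in KO lungs, against 4.74 to 6.86 (median 6.62) in WT lungs. Both were without overlap. Lrmda differed by 1.84 (SE 0.12, adjusted p = 6.52e-09) and Lmbr1 by 0.97 (SE 0.19, adjusted p = 0.021), and the adjusted p of Lmbr1 was 0.051 without KO animal 1 at 1 week. With the 3' to 5' covariate Lmbr1 was at 0.92 (SE 0.22, adjusted p = 0.20). Tmod4, a muscle actin-capping protein dim in both strains, rose by 1.10 (SE 0.16, adjusted p = 5.93e-04), and the actin-severing Cfl2 by 0.81 (SE 0.13, adjusted p = 0.00305), with 9 of 10 KO animals above every WT animal for each. Tmod4 was the only 1 of 13 measured skeletal muscle markers to pass, 8 were positive, and the list's array mean was 3.56 to 4.35 in KO and 3.34 to 4.78 in WT lungs. The part of muscle tissue in this result was not tested. Fam205a1 (0.53), the bradykinin receptor Bdkrb2 (0.44) and the platelet receptor Pear1 (0.32) also rose, and the calls of Fam205a1 and Bdkrb2 were lost in 12 and 17 of 20 fits without 1 animal. The other probe sets of Pear1 were at 0.04, 0.02 and 0.37, and with the median over its probe sets it was at 0.03 (adjusted p = 0.92).

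Clca1, a secreted protein of mucous cells, had the largest rise. It measured 3.05 to 8.36 in KO lungs (median 6.03), against 2.28 to 4.92 in WT lungs (median 3.48). The difference was 2.39 (SE 0.45, adjusted p = 0.0139), 9 of 10 KO animals lay above every WT animal, and the WT mean was dim. With the 3' to 5' covariate it was 1.85 (adjusted p = 0.25), and its second, dim probe set was at 0.05. Clca1 was the only 1 of 12 mucous and basal cell markers to pass, but all 12 were positive and the median was 0.46, against 59.0% positive and 0.02 over all genes. The trefoil factor Tff2 was at 1.39 (SE 0.41, adjusted p = 0.30), the airway mucin Muc5b at 1.06 (SE 0.28, adjusted p = 0.19) and Agr2, a disulfide isomerase of mucous cells, at 0.83 (SE 0.32, adjusted p = 0.55). The array mean of the list was 4.27 to 6.21 in KO and 4.07 to 5.50 in WT lungs. Under styrene the list's median of KO minus WT was 0.013 at 40 ppm and 0.009 at 120 ppm. There 1 member was called higher at 40 ppm and 1 lower at 120 ppm.

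Few immune cell genes passed. Cd207, the Langerhans cell lectin langerin, measured 4.51 to 5.75 in KO lungs (median 5.25), against 3.85 to 4.73 in WT lungs (median 4.41), where its mean was dim. It rose by 0.74 (SE 0.13, adjusted p = 0.00974) with 8 of 10 KO animals above every WT animal. All 17 measured dendritic cell and MHC class II genes were positive (median 0.24), against 59.0% positive, 0.0877% called higher and a median of 0.02 over all genes. Besides Cd207 none passed, with Cd209a at 0.44 (adjusted p = 0.077) and the integrin Itgae at 0.34 (adjusted p = 0.077). The list's array mean was 7.11 to 7.59 in KO and 6.83 to 7.28 in WT lungs. The antibody joining chain gene Jchain rose by 1.22 (SE 0.26, adjusted p = 0.0499), with a KO median of 7.87 (6.75 to 8.92) against a WT median of 6.70 (5.87 to 7.78), and this call was lost in 16 of 20 fits without 1 animal. Of 13 B and plasma cell genes 12 were positive (median 0.13) and of 14 T and NK cell genes all were positive (median 0.20), with Jchain the single call. Cd1d2, a lipid antigen-presenting molecule dim in both strains, rose by 0.76 (SE 0.15, adjusted p = 0.0193). With the 3' to 5' covariate Cd207 was at 0.68 (SE 0.16, adjusted p = 0.12) and Cd1d2 at 0.63 (SE 0.16, adjusted p = 0.28).

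**Figure D4:**
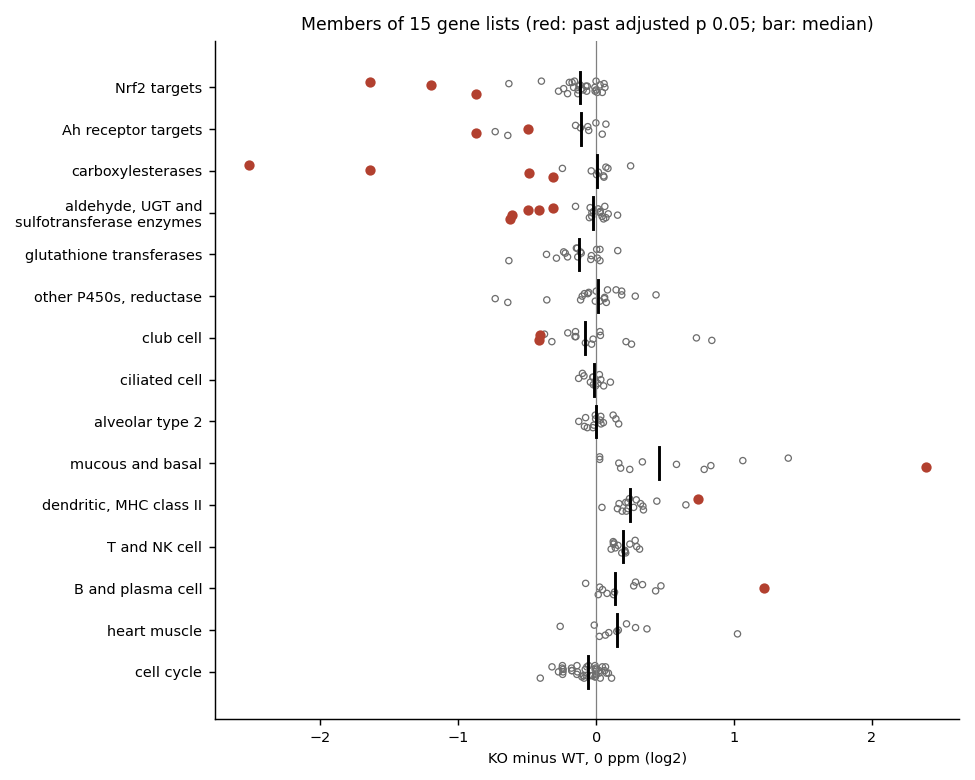
Difference between KO and WT lungs (log2, x axis) of each measured member of 15 gene lists in unexposed animals, n = 10 per strain. Red points passed at adjusted p under 0.05. Black bars are list medians, from -0.12 for the glutathione transferases and the Nrf2 targets to 0.46 for the mucous and basal markers.

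The other lists had 0 called genes, among them ciliated cells (14 measured, median -0.01), alveolar type 2 (15, 0.00) and type 1 cells (9, 0.00), endothelium (17, 0.03), fibroblast matrix (18, -0.08), neutrophils (14, 0.05), p53 targets (18, 0.06), clock genes (16, 0.10), sterol synthesis (17, -0.01), fatty acid oxidation (18, 0.04) and heat shock (10, 0.04). Of 8 genes known to differ between C57BL/6 substrains none passed in limma in unexposed KO minus WT. In KO minus WT 1 of the 8 was called lower at 40 ppm and 1 at 120 ppm, against 2.35% and 1.79% of all genes. Unexposed TG minus WT called 1 of the 8 higher, against 0.0351% of all genes. Wdfy1 measured 7.13 to 9.11 in unexposed KO lungs (median 8.25), against 8.49 to 9.18 in unexposed WT lungs (median 9.03). Its difference was -0.85 (SE 0.19, adjusted p = 0.056), with its other probe sets at -0.72, -0.75 and -0.42. Nnt was at 0.02. In adipose tissue markers, Adipoq was at 1.05 (SE 0.53, adjusted p = 0.74), and the list's array mean was 5.28 to 6.97 in KO and 5.06 to 6.10 in WT lungs.

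The strain difference was also compared between weeks. Of 17097 genes 0 passed as different at 4 weeks and 1 week (limma, 0.0%), with 765 at an unadjusted p under 0.05 (4.47%). The smallest p belonged to Rec114, a meiotic recombination gene dim in all groups, where KO minus WT was 0.40 at 1 week and -0.27 at 4 weeks (limma, adjusted p = 1.0). For the P450 Cyp3a13 it was 0.61 at 1 week and -0.05 at 4 weeks, and for the membrane transporter gene Slc4a11 0.38 and -0.17. In the fit of both weeks, the contrast at 1 week called 14 genes (0.0819%) and that at 4 weeks 16 (0.0936%).

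The arrays of exposed animals give KO minus WT in other mice, with a styrene response mixed in. At 40 ppm 582 genes passed (3.4%), 181 higher (1.06%) and 401 lower (2.35%), and 31 of the 45 genes passed in the same direction. At 120 ppm 518 passed (3.03%), 212 higher (1.24%) and 306 lower (1.79%), and 32 of the 45 did so. The same direction was called at both doses for 29 genes, 8 of the 15 higher and 21 of the 30 lower. They include Pttg1 (-2.17 at 40 ppm and -2.46 at 120 ppm, described next), Ces1f (-2.48 at 40 ppm and -2.24 at 120 ppm), Lrmda (1.66 and 1.69), Cd207 (1.15 and 1.11), Tmod4 (0.71 and 0.91) and Mat2b (-0.37 and -0.38). Called at neither dose were 11 genes in that direction. Clca1 was at 0.54 (adjusted p = 0.85) and -1.08 (adjusted p = 0.42), Cdk5rap1 at -0.26 and -0.51, Lmbr1 at 0.59 and 0.67, Hint1 at 0.10 and 0.06, and Aldh1a7 at -0.05 and -0.12. Cyp1b1, which missed the threshold in unexposed lungs, was at -0.91 (adjusted p = 0.000721) and -0.85 (adjusted p = 0.00194), and Cyp1a1 at -0.82 (adjusted p = 0.016) and -0.93 (adjusted p = 0.026).

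Pttg1 stood at 2 levels among the exposed KO animals. At 40 ppm it measured 11.42 in KO animal 2 and 11.36 in KO animal 3 at 1 week and 11.30 in KO animal 5 at 4 weeks, and at 120 ppm 11.29 in KO animal 3 and 11.34 in KO animal 4, both at 4 weeks. The other 15 of the 20 exposed KO animals measured 8.74 to 9.41, close to the unexposed KO lungs, and WT lungs measured 11.81 to 12.07 at 40 ppm and 11.68 to 12.09 at 120 ppm. The 5 high KO animals lay below every WT animal, and the KO means of 9.77 ± 1.12 at 40 ppm and 9.48 ± 0.98 at 120 ppm (SD, n = 10 each) describe neither level, against an SD of 0.26 in unexposed KO lungs. Cyp2f2 reached at most 12.28 in KO lungs at 40 ppm and 12.12 at 120 ppm, against at least 12.82 and 12.73 in WT lungs. In unexposed lungs Cyp2f2 measured 11.53 to 12.07 in KO and 11.63 to 12.05 in TG animals. Pttg1 measured 11.78 to 12.02 in unexposed TG lungs, above the 5 high KO animals. The cause of the 2 levels was not tested.

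For several enzymes the size of the difference depended on exposure. The test of this difference, which called 88 genes at 40 ppm (0.515%) and 44 at 120 ppm (0.257%), shares the unexposed arrays on which the 45 genes were called. In KO lungs Ces1g averaged 3.58, 3.54 and 3.59 at 0, 40 and 120 ppm, against 5.22, 7.22 and 7.72 in WT lungs. KO minus WT was larger in size by 2.05 on the log2 scale at 40 ppm (adjusted p = 3.26e-07, limma) and by 2.49 at 120 ppm (adjusted p = 7.79e-08) than at 0 ppm. Nqo1 averaged 4.95, 5.01 and 5.06 in KO lungs, against 5.82, 6.41 and 6.76 in WT lungs. Fetub averaged 4.15, 4.29 and 4.21 in KO lungs, against 5.08, 5.66 and 6.02 in WT lungs. For both the change passed at 120 ppm (-0.83, adjusted p = 0.0422, for Nqo1, and -0.89, adjusted p = 0.0127, for Fetub), and the call of Nqo1 was lost in 28 of 49 alternative fits (adjusted p up to 0.0891).

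Pon1 and Aox3 went the other way. Pon1 averaged 10.77, 10.80 and 10.81 in KO lungs at 0, 40 and 120 ppm, against 11.18, 9.46 and 9.51 in WT lungs. KO minus WT was 1.34 at 40 ppm (adjusted p = 0.000311) and 1.30 at 120 ppm (adjusted p = 0.00237), opposite in sign to unexposed lungs. WT animals spread widely there, with means of 8.80 at 1 week and 10.11 at 4 weeks at 40 ppm. Aox3 averaged 9.82, 9.81 and 9.92 in KO lungs, against 10.23, 9.72 and 9.83 in WT lungs, and its change of 0.50 at 40 ppm (adjusted p = 0.0447) was lost in 29 of 49 alternative fits. Cyp2f2 itself averaged 11.86, 11.97 and 11.95 in KO lungs, against 13.27, 13.01 and 13.09 in WT lungs, and KO minus WT was smaller in size by 0.36 at 40 ppm (adjusted p = 0.0284).

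**Figure D5:**
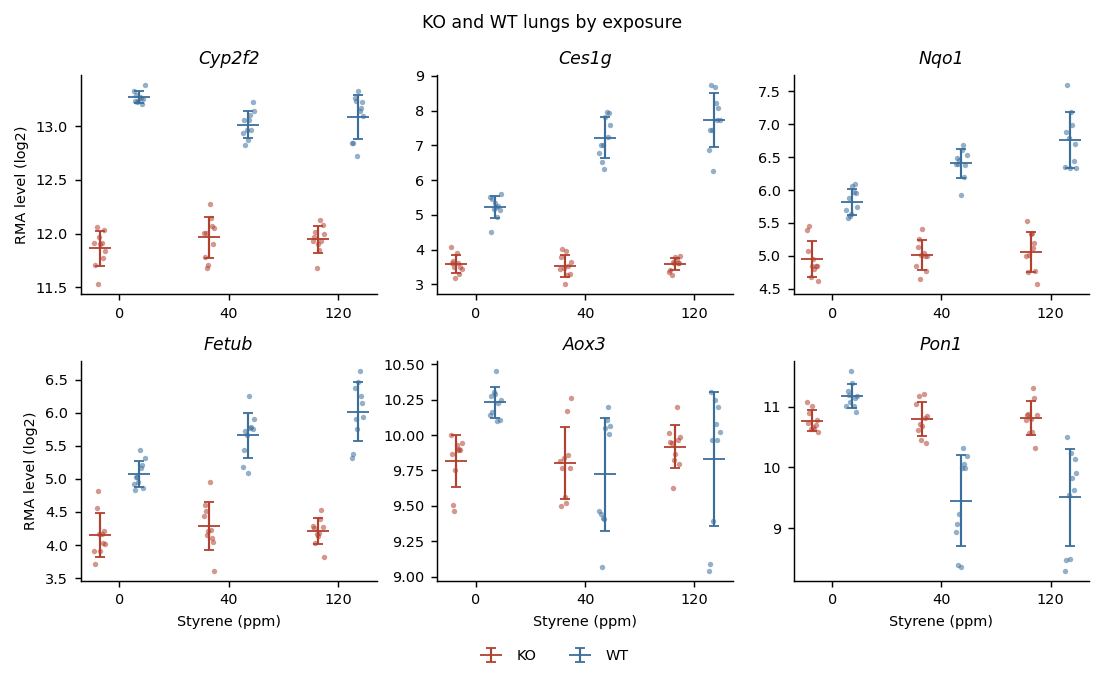
Level (RMA, log2, y axis) of 6 genes at 0, 40 and 120 ppm styrene (x axis), KO left of WT at each dose, points for animals of both weeks, bars for mean and SD (n = 10). The KO means of Ces1g stay between 3.54 and 3.59 while WT means reach 7.72, and the WT mean of Pon1 is 9.46 at 40 ppm.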

How the data were processed

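Total RNA of whole lung was measured on Affymetrix 3' expression arrays, 1 per animal. The deposited values are log2 expression per probe set, with RMA and Partek named in the submitters' processing notes, versions not given in the sources used here. Of 45141 probe sets, 104 controls were left out, 28898 had 1 gene symbol in the platform annotation, 551 several and 15588 none listed. A gene's value came from its brightest probe set (mean of 90 arrays), which gave 17097 genes, 16936 matched to RefSeq (GRCm38.p6), which supplied names, gene order and promoters.

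Groups came from the labels. Models were fitted to log2 values with limma 3.58.1 in R 4.3.3 (20 arrays, strain and week; empirical Bayes, Benjamini-Hochberg over all genes). Differences of strain differences between weeks, or between doses (40 arrays), were interaction contrasts. The number of arrays limits the precision. In simulated data for KO minus WT, 92% of genes changed 1.5-fold and 62% of genes changed 1.25-fold were recovered. The simulation drew independent normal noise for each gene, without shared array effects. It changed 50 genes at each of 1.25-, 1.5-, 2- and 3-fold, so recovery in the real arrays may be lower.

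The genes and the 42 lists were chosen with earlier results of these data known. Named are the 15 largest rises and falls among genes that passed, list members that passed or up to 4 by size, called neighbours, and for the contrast of weeks the 3 with the smallest p; a predicted gene is named if it is 1 of the 5 largest. The alternatives tried were a repeated quantile normalization, dim genes left out (below the 40th percentile), the median over probe sets, all 90 arrays, trend with robust fit, array weights, replicate block, poly-A and 3' to 5' covariates, no week, each week alone and each animal left out. KO minus TG and the contrasts between doses were added after seeing the data.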

Additional observations from a re-analysis of the deposited data

Results flagged for a closer look

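In 10 of 180 groups of 5 animals examined for the 45 genes, 1 animal lay far from the other 4, and chance alone gives about 1 in 20. Clca1 was at 3.05 in KO animal 3 at 4 weeks, with the next animal at 5.88. Low single animals were also seen for Cfl2 (5.79, KO animal 4 at 1 week), Bdkrb2 (5.24, KO animal 2 at 1 week), Nudcd2 (8.76, KO animal 3 at 4 weeks), Zfp354a (4.47, WT animal 1 at 1 week) and Mia (5.82, WT animal 2 at 1 week). High single animals were seen for Mia (6.65, KO animal 3 at 1 week), Ces1f (7.25, WT animal 1 at 4 weeks), Aox1 (9.58, WT animal 4 at 1 week) and Ugt1a6a (11.05, WT animal 1 at 4 weeks). No explanation was weighed.

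For 6 genes and 1 or both doses the strain difference under styrene differed from that in unexposed lungs by its own limma contrast. At 40 ppm KO minus WT moved by -2.05 for Ces1g, 0.36 for Cyp2f2, 0.50 for Aox3 and 1.75 for Pon1. At 120 ppm it moved by -2.49 for Ces1g, -0.89 for Fetub, -0.83 for Nqo1 and 1.71 for Pon1. The contrasts of Ces1g and Pon1 passed in every alternative run, with adjusted p up to 0.00381 for Pon1, Fetub lost its call with all 90 arrays (adjusted p = 0.0582), Nqo1 lost it in 28 of 49 alternatives, and Cyp2f2 in 5 of 49 (adjusted p up to 0.0652), among them those without KO animal 4 at 0 ppm or WT animal 3 at 40 ppm, both at 1 week. Aox3 lost its call in 29 of 49.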

How the results depend on the processing

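None of the 45 genes changed sign in any alternative, 37 passed with any 1 animal left out, and 24 passed in these and in every other setting run for them with both weeks (10 settings for 21 genes, 9 for 3 genes that the filter on dim genes removed). The count of 45 was 81 with array weights (23 higher, 58 lower), 9 with 1 week only (3 higher, 6 lower) and 17 with 4 weeks only (3 higher, 14 lower), fits with fewer animals. The 3' to 5' covariate left 5 higher. Leaving out 1 animal gave 39 to 48 genes, 48 without KO animal 3 at 1 week. Between weeks, 1 gene passed with the poly-A covariate. At 40 ppm the count of 582 was 892 with all 90 arrays, 1609 with the poly-A covariate, 1573 with array weights and 394 to 1275 with 1 animal left out (1275 without KO animal 1 at 4 weeks). At 120 ppm the count of 518 was 788 with quantile normalization again, 1442 with all 90 arrays, 1053 with the poly-A covariate, 893 with array weights and 244 to 921 with 1 animal left out (921 without WT animal 3 and 244 without KO animal 4, both at 1 week). Of the 45 genes, 24 to 35 passed in the same direction at 40 ppm and 26 to 35 at 120 ppm over all alternatives. TG minus WT gave 36 genes, 94 with array weights, and 29 to 50 with 1 animal left out. KO minus TG gave 7 genes, 13 with quantile normalization again, 14 with the median over probe sets, 23 with all 90 arrays, 11 with the poly-A covariate, 25 with array weights and 6 to 11 with 1 animal left out (11 without KO animal 2 at 4 weeks). For the change of KO minus WT at 40 ppm, 88 genes passed, 280 with the poly-A covariate, 334 with array weights, 57 with the replicate block, 32 with the 3' to 5' covariate and 37 to 230 with 1 animal left out. At 120 ppm 44 passed, 91 with all 90 arrays, 67 with array weights, 24 with the 3' to 5' covariate and 24 to 101 with 1 animal left out. The cause of these shifts was not tested. Scgb1a1, at -0.03, was at 0.0192 with 4 weeks only, and neither value passed. Whether replicate numbers pair the animals was not settled, and the main fits did not use them. The correlation of same-numbered KO and WT animals was -0.10 to 0.39, over 0.1 in 6 of 10 pairs. Of the 10, 4 correlated best with their own number. With the replicate number as a block, 47 genes passed in unexposed lungs, 17 higher and 30 lower, and 8 of the 45 lost their call (Jchain, Lmbr1, Pear1, Hint1, Slc36a1, Atox1, Aldh1a7 and Ces1c). Pear1 was also lost with the median over probe sets, all 90 arrays and the 3' to 5' covariate.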
